A study of Mus musculus with 1615 samples.

Results

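The cells described here are a class of colonic visceral smooth muscle cells with more Ano1 than F2r RNA, and the smooth muscle cells of blood vessels sorted with them. They are 210 of the 1615 single cells of the series, and 210 of the 864 cells of the mice 20GG79:1 and 20GG95:3. Both animals are female by their labels, although the series' design text speaks of males only, and carry the reporter pair ACTA2GFP:CSPG4dsRED, fluorescent proteins named after the smooth muscle actin Acta2 and the mural cell proteoglycan Cspg4. The third mouse of the line, labelled male, 20GG79:6, lies outside the comparison and is given beside it. All 3 are adults of 8 to 30 weeks by their labels and bear both reporters and no treatment is named. Single cells were sorted into plates and sequenced with Smart-Seq2, a full-length cDNA method without molecular identifiers. The counting intervals of ratios below treat each read as an independent draw, pooled over cells and mice. They cover neither copies made in amplification nor the spread between cells or animals. The tissue field names the colon, whereas the protocol text speaks of the heart. Sort settings are not known here.

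Cells were chosen from their own RNA, as CPM, a gene's counts scaled to the same total of gene counts in every cell. Ano1-high visceral cells had at least 1000 CPM of Myh11, under 200 of Notch3, under 200 of Pdgfra, under 100 of Cdh5 and more Ano1 than F2r. Vascular cells had at least 200 CPM of Notch3, under 200 of Pdgfra, under 200 of Cdh5, and a larger sum of P2rx1 and Sorbs2 than of Abcc9 and Gpx3. The first gate held 111 cells, 9 of 20GG79:1 and 102 of 20GG95:3, and the second held 99, 10 and 89 respectively. In 20GG79:6 the same gates held 15 and 14 cells. Visceral cells with no more Ano1 than F2r, called F2r-high here, numbered 149 and 215 in the 2 mice and served as the nearest class for comparison.

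Visceral smooth muscle forms the muscle layers of the gut wall and moves its contents, under the control of enteric nerves, interstitial cells of Cajal and locally made prostaglandins and purines. Vascular smooth muscle sets the width of arteries and veins, keeps its state through Notch signals from the endothelium, and responds to noradrenaline and nitric oxide. Ano1 encodes a calcium-activated chloride channel best known in the gut from interstitial cells of Cajal, and F2r encodes the thrombin receptor PAR1. The muscle and its neighbours also supply the crypts with BMP and WNT ligands and their antagonists, while Hedgehog from the epithelium acts on the mesenchyme.

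Levels below are CPM of the counts summed over the cells of a class in a mouse, and 3 values in a row are for 20GG79:1, 20GG95:3 and 20GG79:6, in that order. Cells of one animal are not replicates, so the test compared the sums of 20GG79:1 and 20GG95:3 (n = 2 mice) with edgeR's quasi-likelihood model and the mouse as a block, and 20GG79:6 stayed outside it. A log2 fold change is Ano1-high minus vascular, with its SE. A gene passed at a Benjamini-Hochberg adjusted p of at most 0.05 over 12992 genes. Genes given below as not passing, other than Acta2, Actg2, Des, Tagln, Pln, Casq2 and Rgs5, were chosen for mention after their values were seen. The model has 1 residual degree of freedom, so its error rests mainly on a spread pooled across genes.

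The 10 genes of the gates are described and not tested. Ano1 was at 1734, 1199 and 1401 CPM in Ano1-high cells and at 1014, 852 and 866 CPM in vascular cells, so the gene that names the visceral class was also high in the vascular one, whose gate does not ask about it. In F2r-high cells Ano1 was at 7.47 and 4.12 CPM in the first 2 mice. Notch3, the receptor that marks mural cells of vessels, was at 6.28, 11.6 and 20.2 CPM against 1609.6, 2242 and 3349 CPM. Myh11, smooth muscle myosin, was at 4163, 5513 and 3979.7 CPM against 4829, 5836 and 4566 CPM, about level although the gate of the vascular class does not ask for it. Near the edges of the gates, 2 of 9 and 20 of 102 Ano1-high cells had under 100 CPM of Ano1. Cells whose Ano1 and F2r levels lay within a factor of 2 numbered 1 and 5 on the Ano1-high side and 0 and 22 on the F2r-high side. Only 0 and 4 vascular cells had Notch3 under 400 CPM, and 0 and 3 Ano1-high cells had 100 CPM or more.

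Median gene counts per cell were 354812 and 139368 in Ano1-high cells and 270450.5 and 152878 in vascular cells of the 2 mice. The 20GG79:1 cells lay on 1 plate, and those of 20GG95:3 on 2, the first with 33 and the second with 69 of its Ano1-high cells. All 8 smooth muscle markers were present in both classes, with sums of 11422 and 21746 CPM in Ano1-high and 14360.4 and 18852 CPM in vascular cells. Kit, which defines interstitial cells of Cajal, had 0 counts in both classes of both mice, and was at 0.306 CPM in Ano1-high and 74.6 CPM in vascular cells of 20GG79:6. The list of 6 Cajal cell markers summed to 355.8, 232.1 and 272.4 CPM in Ano1-high and to 633.0, 920.5 and 556.4 CPM in vascular cells, mostly from Gpr20, which was at 605.4, 897.1 and 428.4 CPM in the latter and did not pass. The 8 pericyte markers summed to 3814, 1816 and 2056 CPM in Ano1-high and to 3601, 3195 and 5763 CPM in vascular cells. Markers of endothelium, epithelium, immune cells, glia and neurons summed to at most 81.1 CPM in any class of the 2 mice, and to as much as 591.2 CPM in 20GG79:6. The 8 fibroblast markers summed to 2342 and 854.4 CPM in Ano1-high and to 203.5 and 46.1 CPM in vascular cells. In 20GG79:6 they summed to 822.2 and 490.5 CPM. Dcn, Lum, Mfap5 and Dpt among them were not peculiar to Ano1-high cells. In F2r-high cells of the 2 mice Dcn was at 814.0 and 626.5 CPM, beside 1087.3 and 319.1 CPM in Ano1-high cells. Lum was at 484.8 and 372.8 CPM beside 867.7 and 300.7 CPM. Mfap5 was at 681.8 and 618.0 CPM beside 204.4 and 211.3 CPM, and Dpt at 213.6 and 115.4 CPM beside 171.6 and 7.52 CPM. At least 2 of the 8 fibroblast markers reached 100 CPM in 5 of 9 and 29 of 102 Ano1-high cells, and in 0 of 10 and 1 of 89 vascular cells. Conversely, 2 of 9 and 8 of 102 Ano1-high cells held at least 100 CPM of Kcna5 or Pln, a potassium channel and a calcium pump regulator that were present at this level in 10 of 10 and 78 of 89 vascular cells. In 20GG79:1 both such cells also had under 100 CPM of the enteric actin Actg2, whereas in 20GG95:3 0 of the 8 did. What part such cells have in the differences below was not tested beyond the values given without them.

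Of the 12992 genes tested, 105 passed (0.808%), 59 of them higher in Ano1-high cells (0.454%) and 46 higher in vascular cells (0.354%). All 105 differed in the same direction in both mice, but the test that chose them used these same mice, so nothing is read from this count. Over all genes tested, 1029 had an unadjusted p under 0.05. Far fewer genes passed when 1 mouse was left out of the comparison, which leaves 1 sum a class. The spread then came from other classes of all 3 mice. In a fit chosen after seeing the data, without the Ano1-high cells that held Kcna5 or Pln, 257 genes passed, 121 higher in Ano1-high and 136 higher in vascular cells. These cells were left out by vascular RNA, which favours calls of vascular genes. The plot of the 15 gene lists shows where the 105 lay.

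**Figure D1:**
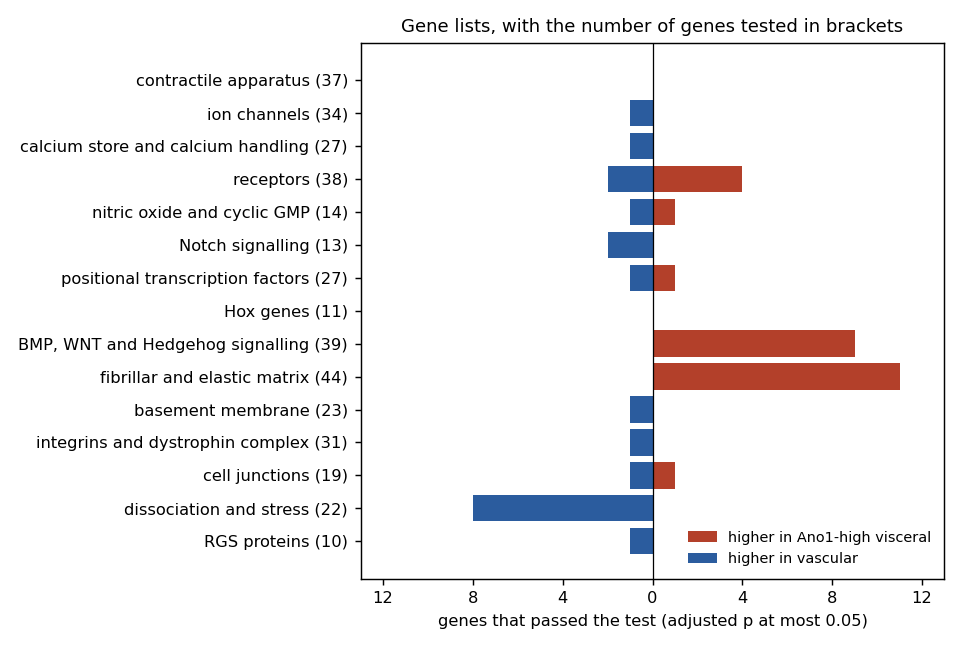
Number of genes of each list (rows, with the number tested in brackets) that passed the test, to the right where the level was higher in Ano1-high visceral and to the left where it was higher in vascular cells. Matrix genes (11 of 44) and BMP, WNT and Hedgehog genes (9 of 39) passed only to the right, and dissociation and stress genes (8 of 22) only to the left, with 0 of 37 contractile genes on either side. Over all genes tested 0.808% passed, so 0 of 37 is near that share and shows no lack of difference. Of the 37 contractile genes, 11 had an unadjusted p under 0.05.

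Receptors separated the 2 muscles in both directions. Of 38 receptor genes tested, 4 were higher in Ano1-high cells, 2 were vascular and 32 did not pass, with a median log2 fold change of 1.00 beside -0.02 over all genes. Tacr2 encodes the neurokinin 2 receptor, through which tachykinins of enteric nerves contract the gut. Its level was 428, 329 and 349 CPM in Ano1-high and 0.394, 0 and 0 CPM in vascular cells. The vascular sums of the 2 mice held a single Tacr2 count, and the ratio of the summed levels was 5790.4 (95% counting interval 1039 to 228739), with adjusted p = 0.00393. Adora1, the inhibitory adenosine A1 receptor, was at 312, 319 and 297 CPM against 0.394, 0.209 and 0.999 CPM, a log2 fold change of 10.06 ± 1.07 (adjusted p = 0.00344). Both receptors were thus near absent from the vascular sums of all 3 mice.

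The other 2 bind prostaglandin E2. Ptger3 (receptor EP3) was at 316, 234 and 91.0 CPM against 1.97, 0.279 and 0 CPM, with a log2 fold change of 8.42 ± 1.14 (adjusted p = 0.0127). Ptger1 (EP1) was at 1915, 1194 and 1078 CPM against 10.6, 24.6 and 61.2 CPM, a log2 fold change of 6.45 ± 0.66 (adjusted p = 0.00318). Ptger1 lies at chr8:83666678-83672753 on GRCm38. Smart-Seq2 does not mark strand, and 71.0% of the exon bases of Ptger1 are also exonic on the other strand, so its level may include reads that are not its own. The other 2 prostaglandin E2 receptors did not pass: Ptger2 was at 1.32, 16.3 and 32.2 CPM against 6.30, 0.14 and 0.999 CPM and Ptger4 at 2.65, 5.64 and 18.1 CPM against 7.09, 59.96 and 2.25 CPM.

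On the vascular side, Adra1a, the α1A-adrenergic receptor through which noradrenaline constricts arteries, was at 246, 87.7 and 145 CPM in vascular and 0, 0.111 and 0.306 CPM in Ano1-high cells. The 2 mice gave 2 counts in Ano1-high and 1882 in vascular cells, a ratio of the vascular to the Ano1-high level of 1178 (95% counting interval 326 to 9732), with adjusted p = 0.0226. S1pr3, a receptor for sphingosine 1-phosphate, was at 809, 1355 and 341 CPM against 167, 83.0 and 30.6 CPM, with a log2 fold change of -3.22 ± 0.59 (adjusted p = 0.0454). It stood at 145 CPM in Ano1-high cells of the first plate and 27.9 CPM in those of the second plate, so even within 20GG95:3 its visceral level varied between plates. Neither vascular receptor passed in the fit without the first plate or in that without cells holding markers of another type.

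**Figure D2:**
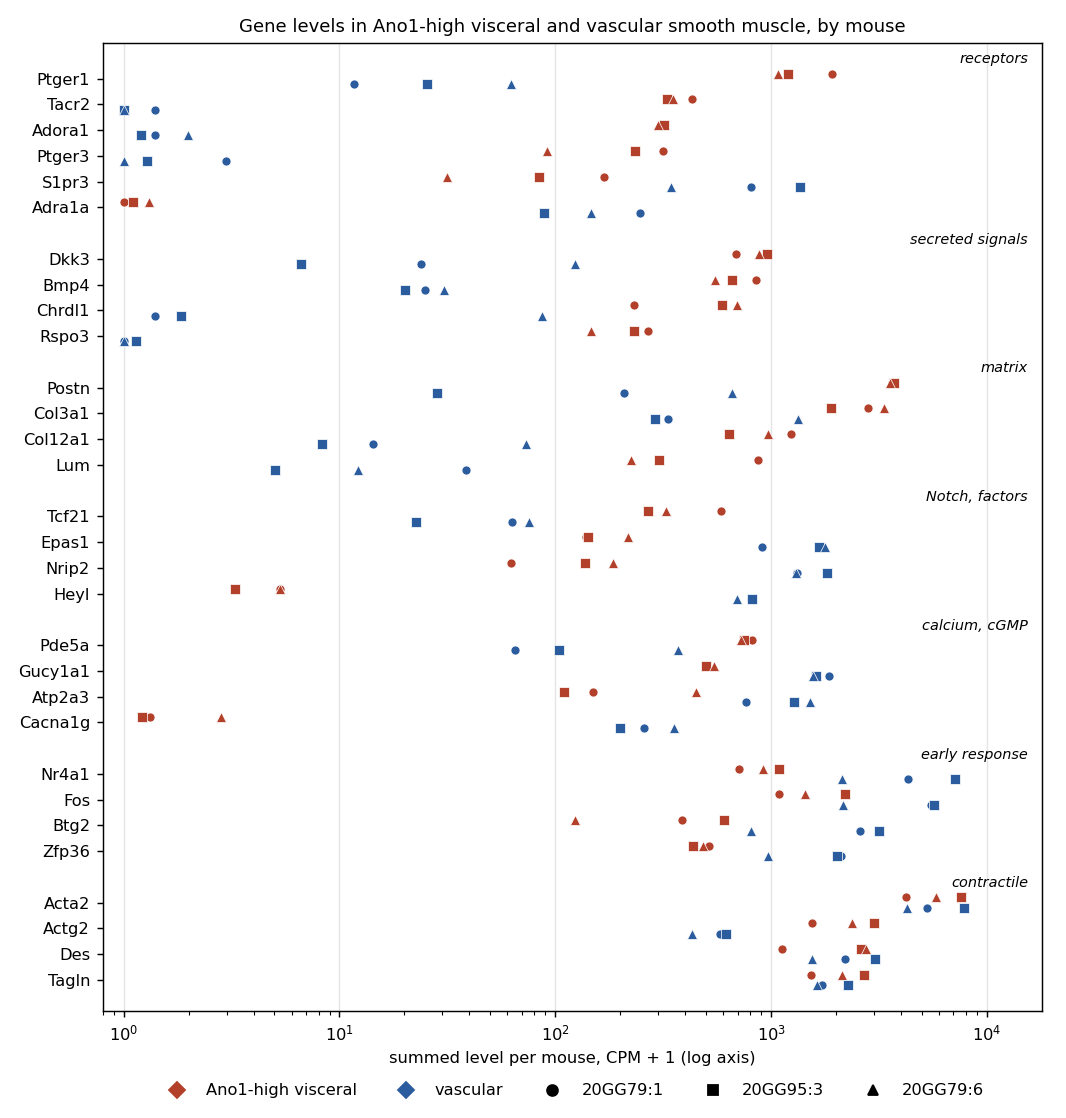
Summed level per mouse (x axis, CPM + 1, log axis) of genes in the order of the text, in Ano1-high visceral (red) and vascular cells (blue), with 1 symbol per mouse. In the first 5 groups the colours part without overlap in all 3 mice, in the early-response group Fos overlaps, and of the contractile genes Acta2, Des and Tagln overlap. Genes that passed were chosen with mice shown here, so nothing is read from their separation. Over all genes tested, 9.01% parted in all 3 mice with Ano1-high cells higher and 7.34% with vascular cells higher.

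The genes of BMP, WNT and Hedgehog signalling that passed were all higher in Ano1-high cells. Of 39 genes tested, 9 passed and 30 did not pass, with a median log2 fold change of 3.09. Bmp4, a BMP ligand, was at 849, 655 and 549 CPM against 24.0, 19.2 and 29.5 CPM in vascular cells, a log2 fold change of 5.05 ± 0.56 (adjusted p = 0.00393). Chrdl1, a secreted BMP antagonist, was at 229.8, 589.9 and 691 CPM against 0.394, 0.838 and 85.4 CPM, at 9.24 ± 0.90 (adjusted p = 0.00263). Ligand and antagonist were therefore both on the visceral side. Rspo3, an R-spondin that amplifies WNT signals, was at 269, 229 and 145 CPM against 0, 0.14 and 0 CPM. With 2 counts in the vascular sums, its ratio was 1982 (95% counting interval 548 to 16373), with adjusted p = 0.00786. Dkk3, a secreted protein of the Dickkopf family, was at 687, 955 and 883 CPM against 22.8, 5.65 and 122 CPM, at 6.10 ± 0.75 (adjusted p = 0.00749).

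The other 5 genes of this list that passed include, named after their values were seen, the BMP antagonist Grem1, the WNT antagonist Sfrp1, the Hedgehog receptor Ptch1 and the Hedgehog decoy Hhip. Ptch1 and Hhip, both known targets of Hedgehog signalling, were at 568, 465 and 325 and 396, 448 and 238 CPM against 26.0, 37.4 and 9.24 and 20.1, 3.28 and 25.5 CPM. Grem1 was at 272, 728 and 743 CPM against 3.94, 0.698 and 60.4 CPM. The Hedgehog effectors did not pass: Gli1 was at 74.1, 122 and 48.1 CPM against 3.54, 1.68 and 149.8 CPM and Gli2 at 194, 163 and 14.7 CPM against 27.9, 33.7 and 38.4 CPM. BMP targets of the Id family did not pass either, with Id1 at 15.5, 20.6 and 18.4 CPM against 115, 60.1 and 155.03 CPM. Without cells holding markers of another type, 8 of the list's genes passed, without the second plate 4, and with the third mouse in the fit 3.

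Interstitial matrix genes that passed were likewise all higher in Ano1-high cells. Of 44 genes of fibrillar and elastic matrix 11 passed, with a list median of 2.12. Postn, periostin, was at 3633, 3729 and 3564 CPM against 208, 27.4 and 658 CPM, a log2 fold change of 5.55 ± 0.66 (adjusted p = 0.00728). Col12a1, a collagen that coats fibrils, was at 1234, 638 and 967 CPM against 13.4, 7.33 and 72.1 CPM, at 6.42 ± 0.57 (adjusted p = 0.00252). These 2 were high in every visceral sum and low in every vascular one, with the highest vascular levels in 20GG79:6. Col3a1, a fibrillar collagen, was at 2810.4, 1889 and 3346 CPM against 332, 287 and 1338 CPM, at 2.84 ± 0.37 (adjusted p = 0.00967). Lum, lumican, a proteoglycan that spaces collagen fibrils, was at 868, 301 and 224 CPM against 37.4, 4.05 and 11.2 CPM, at 5.31 ± 0.67 (adjusted p = 0.00874). The remaining 7, named after their values were seen, were Col5a2, Col6a1, Col6a2, Dcn, Fbln1, Ltbp4 and Mfap4.

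Lum and Dcn are among the fibroblast markers whose sums were given above. In the fit without cells holding markers of another type, which leaves 4 Ano1-high cells in 20GG79:1, 9 matrix genes passed. Cells were left out there by Lum and Dcn among others, so the values of these 2 genes in that fit are set by the choice of cells. Col3a1, which was not used in that choice, stood at a log2 fold change of 1.96 (adjusted p = 0.0508) and so lost its call. The fibroblast markers Dpt, Mfap5, Pi16 and Col14a1 did not pass, and Clec3b and Ptx3 were too low to test. Pi16 was at 3.31, 0.774 and 3.98 CPM in Ano1-high and 5.12, 0.558 and 3.25 CPM in vascular cells, and Mfap5 at 204, 211 and 61.6 CPM against 10.6, 2.37 and 50.9 CPM. The part of fibroblast RNA in the matrix difference was not tested further. Collagen I did not pass: Col1a1 was at 2067, 969 and 1946 CPM against 392, 471 and 700.5 CPM. With the third mouse in the fit, 3 matrix genes passed.

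Of 23 basement membrane genes tested, 1 passed, and 10 had an unadjusted p under 0.05. It was Col18a1, the collagen from which endostatin is cut, and it was higher in vascular cells. With no filter on low counts 3 genes of this list passed on either side, and with DESeq2 2. Its level was 442, 665 and 425 CPM in vascular and 54.9, 48.4 and 136 CPM in Ano1-high cells, a log2 fold change of -3.46 ± 0.58 (adjusted p = 0.0296). Among integrins and the dystrophin complex, 1 of 31 passed, Bcam, a laminin receptor, at 1784, 2303 and 1790.2 CPM in vascular against 299.6, 489 and 468 CPM in Ano1-high cells (-2.47 ± 0.35, adjusted p = 0.0131). Of 19 junction genes, Gja4, the gap junction protein connexin 37, was higher in vascular cells, at 1009.7, 790.3 and 594 CPM against 104, 44.5 and 49.6 CPM (-3.77 ± 0.53, adjusted p = 0.0132). Cavin2, a coat protein of caveolae, was higher in Ano1-high cells, at 462, 344 and 325 CPM against 4.72, 1.26 and 66.7 CPM (7.30 ± 0.83, adjusted p = 0.00543). The other caveolar genes tested, Cav1, Cavin1 and Cavin3, did not pass.

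Among ion channels the one gene of 34 that passed was vascular, and the list median was -1.07. Cacna1g, the T-type calcium channel Cav3.1, was at 258, 198 and 356 CPM in vascular and 0.331, 0.221 and 1.84 CPM in Ano1-high cells, a log2 fold change of -9.75 ± 1.23 (adjusted p = 0.00786). The large-conductance potassium channel gene Kcnma1, which was chosen for mention after its values were seen, lay the other way without passing, at 238, 285 and 336 CPM in Ano1-high and 0.787, 46.8 and 0.999 CPM in vascular cells (adjusted p = 0.33). Of 27 calcium store genes 1 passed, Atp2a3, which encodes the calcium pump SERCA3, at 763, 1280.1 and 1509 CPM against 149, 108.7 and 446 CPM (-3.02 ± 0.53, adjusted p = 0.0345). Atp2a3 ends 6058 bases from P2rx1, one of the genes that chose the vascular cells. Pln, phospholamban, was at 1066, 849 and 407 CPM against 5.95, 109.7 and 35.5 CPM and did not pass (-5.19 ± 1.04, adjusted p = 0.0682). It passed without cells holding markers of another type, at a log2 fold change of -4.27 (adjusted p = 3.64e-05), and with DESeq2 (adjusted p = 0.00152), where vascular cells were again higher. Casq2, calsequestrin, was at 383, 389 and 629 CPM against 203, 109.3 and 93.5 CPM and did not pass (adjusted p = 0.516).

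Genes of the nitric oxide pathway lay on both sides. Gucy1a1 encodes a subunit of the guanylate cyclase that nitric oxide activates, and it was higher in vascular cells, at 1861, 1614 and 1565 CPM against 501, 497 and 540.0 CPM (-1.86 ± 0.35, adjusted p = 0.0493). Pde5a encodes the phosphodiesterase that breaks down cyclic GMP, and it was higher in Ano1-high cells, at 813, 745 and 728 CPM against 64.2, 104 and 370.2 CPM (3.19 ± 0.53, adjusted p = 0.0291). The other 12 of the 14 genes tested did not pass, and the list median was -0.78. The partner subunit Gucy1b1 was at 597, 509 and 489 CPM in vascular and 362, 139.7 and 262 CPM in Ano1-high cells (adjusted p = 0.498). Both calls are near the threshold: Gucy1a1 and Pde5a had adjusted p-values of 0.106 and 0.0738 with RLE size factors, another scaling of library sizes, and 0.372 and 0.0546 without cells holding markers of another type.

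Both Notch list genes that passed were higher in vascular cells, a class chosen by its Notch3 level. Of 13 tested 2 passed and the list median was -1.93. Heyl, a transcription factor switched on by Notch, was at 806, 814 and 696 CPM in vascular and 4.30, 2.27 and 4.29 CPM in Ano1-high cells (-8.10 ± 0.68, adjusted p = 0.00252). Nrip2, a nuclear receptor cofactor, was at 1316, 1823 and 1304 CPM against 61.2, 137 and 184 CPM (-4.14 ± 0.43, adjusted p = 0.00318). It shares 550 exon bases with the gene model Gm44596, which lies on the same strand and also passed (-4.24 ± 0.59, adjusted p = 0.0131). Notch targets other than Heyl did not pass: Hes1 was at 419, 311 and 382 CPM in vascular and 90.6, 97.9 and 113 CPM in Ano1-high cells, and Nrarp at 132, 101 and 453 CPM against 0.992, 3.87 and 0.613 CPM. Because Notch3 defined the vascular gate, genes that follow Notch3 from cell to cell are not independent of the choice of cells.

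Transcription factors of position and lineage gave 1 call on each side among 27 tested. Tcf21, a mesodermal factor, was higher in Ano1-high cells, at 585, 268 and 324 CPM against 62.2, 21.6 and 74.9 CPM (3.37 ± 0.61, adjusted p = 0.0401). Without cells holding markers of another type its log2 fold change was 2.31 and its adjusted p was 1. Epas1, the hypoxia-inducible factor HIF-2α, was higher in vascular cells, at 908, 1671 and 1774 CPM against 139, 140.3 and 216 CPM (-3.21 ± 0.47, adjusted p = 0.0166). Foxf1, a gut mesenchyme factor downstream of Hedgehog, was at 278, 207 and 263 CPM in Ano1-high and 31.9, 114 and 91.1 CPM in vascular cells and did not pass (adjusted p = 0.656). Of 11 Hox genes 0 passed by edgeR, with 2 at an unadjusted p under 0.05, Hoxb7 and Hoxd10. Among RGS proteins, which shorten signals of G protein-coupled receptors, 1 of 10 passed: Rgs4 was at 1516, 2192 and 1475 CPM in vascular and 194, 91.8 and 225 CPM in Ano1-high cells (-3.83 ± 0.53, adjusted p = 0.0131). Rgs5, known from pericytes, was at 2924, 1006 and 1412 CPM against 2126, 1320.0 and 2590.5 CPM and did not pass.

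All early-response genes that passed were higher in vascular cells. These genes are switched on within minutes by growth factors, by calcium and also by tissue dissociation, to which all cells here were exposed. Of 22 genes of the dissociation and stress list, 8 passed, with a list median of -1.92. Nr4a1, an orphan nuclear receptor, was at 4306, 7139 and 2128 CPM in vascular and 706, 1087 and 918 CPM in Ano1-high cells (-2.72 ± 0.28, adjusted p = 0.00318). Btg2, an antiproliferative gene, was at 2587, 3175 and 809 CPM against 386, 607 and 122 CPM (-2.63 ± 0.32, adjusted p = 0.00728). Zfp36, a factor that destabilises short-lived messenger RNAs, was at 2115, 2029 and 963 CPM against 515.5, 432 and 480.2 CPM (-2.20 ± 0.35, adjusted p = 0.0226). Fos, a component of AP-1, was at 5512, 5699 and 2163 CPM against 1087, 2208 and 1431 CPM (-1.92 ± 0.28, adjusted p = 0.0166).

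In these genes the vascular level of 20GG79:6 was the lowest of the 3, and for Fos it overlapped the Ano1-high levels. Dusp1, Junb, Atf3 and Egr1, named after their values were seen, also passed, at log2 fold changes between -3.68 ± 0.60 and -1.74 ± 0.31. The calls of this list depended on the fit: 3 of its genes passed with RLE size factors, 2 with DESeq2, 2 without the first plate, 3 with a stricter Ano1 gate and 1 with the third mouse included. Mitochondrial counts made up 1.06% and 1.76% of the summed gene counts of Ano1-high cells in the 2 mice and 1.69% and 1.67% in vascular cells. Whether the response arose in the tissue or during dissociation was not tested.

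Of the 8 early-response genes that passed, 7 had a RefSeq promoter entry, and 4 of these held TGACGT on either strand between 250 bases before and 50 after the start. TGACGT is the core of the cyclic AMP response element, through which calcium and cyclic AMP act on early genes, and it was chosen after the genes were seen. The same letters occurred in 13.7% of the 9288 tested genes with a promoter entry, in 7.51% of all 32851 promoters, in 6 of 31 genes higher in vascular and in 2 of 40 genes higher in Ano1-high cells. The 4 promoters are shown to give the place of these letters in each window. Whether the element has a part in the differences was not tested. They are given from 250 bases to 1 base before the start, 5′ to 3′ on the gene's strand, on GRCm38.p6, with TGACGT or its reverse complement in capitals.
Fos, chr12:85473640-85473889 on the plus strand.
Fos: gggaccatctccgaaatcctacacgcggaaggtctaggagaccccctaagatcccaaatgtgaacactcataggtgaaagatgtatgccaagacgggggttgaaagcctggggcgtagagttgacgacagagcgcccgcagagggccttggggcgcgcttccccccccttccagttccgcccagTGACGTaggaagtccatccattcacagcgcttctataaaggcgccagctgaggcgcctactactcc
Atf3, chr1:191183334-191183583 on the minus strand.
Atf3: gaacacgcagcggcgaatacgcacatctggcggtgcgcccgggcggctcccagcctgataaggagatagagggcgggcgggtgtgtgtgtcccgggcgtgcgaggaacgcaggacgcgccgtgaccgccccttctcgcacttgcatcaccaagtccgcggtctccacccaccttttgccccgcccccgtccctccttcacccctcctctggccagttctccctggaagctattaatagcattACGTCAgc
Btg2, chr1:134079156-134079405 on the minus strand.
Btg2: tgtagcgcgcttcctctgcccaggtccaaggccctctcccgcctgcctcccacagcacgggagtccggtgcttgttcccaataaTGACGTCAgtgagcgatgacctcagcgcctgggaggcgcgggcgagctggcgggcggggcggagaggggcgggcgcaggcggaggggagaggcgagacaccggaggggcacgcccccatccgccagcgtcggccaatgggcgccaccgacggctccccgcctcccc
Dusp1, chr17:26508473-26508722 on the minus strand.
Dusp1: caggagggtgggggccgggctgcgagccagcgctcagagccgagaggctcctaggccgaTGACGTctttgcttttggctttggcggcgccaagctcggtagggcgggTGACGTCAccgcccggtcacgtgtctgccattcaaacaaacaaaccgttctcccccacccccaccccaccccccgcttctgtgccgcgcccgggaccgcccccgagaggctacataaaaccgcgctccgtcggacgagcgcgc
The element began 66 bases before the start in Fos, 8 in Atf3, 166 in Btg2, and 191 and 143 in Dusp1. A match describes the letters of the window and shows no binding.

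The contractile apparatus gave no call in either direction in the planned edgeR fit. Of 37 genes, 0 passed, beside 0.808% of all genes tested. Of these 37, 11 had an unadjusted p under 0.05, and the list median was -0.05. Other fits did call some: 3 genes higher in Ano1-high and 4 higher in vascular cells with no filter on low counts, 4 and 6 with the mean of log2(CPM + 1) over cells, 3 and 1 without Ano1-high cells holding Kcna5 or Pln, 2 and 1 without cells holding markers of another type, and 0 and 2 with DESeq2. Acta2 was at 4209, 7612 and 5799 CPM in Ano1-high and 5283, 7846 and 4284 CPM in vascular cells (-0.25 ± 0.22, adjusted p = 0.996). Tagln, transgelin, was at 1526, 2681 and 2131 CPM against 1712, 2261 and 1637 CPM (-0.02 ± 0.29, adjusted p = 0.999). Des, the intermediate filament desmin, was at 1118, 2613 and 2739 CPM against 2204, 3031 and 1550.2 CPM (-0.66 ± 0.30, adjusted p = 0.64). It passed as higher in vascular cells in the limma fit on the mean of log2(CPM + 1) over cells (-2.17, adjusted p = 0.00144). The levels of these 3 genes overlapped between the classes. Actg2, the enteric γ-actin that marks gut muscle, was at 1549, 3005 and 2361 CPM against 581, 619.7 and 429 CPM without overlap, but missed the threshold (1.78 ± 0.35, adjusted p = 0.0601). Its adjusted p was 0.0387 without the mouse block and 0.00190 without cells holding markers of another type. Cnn1, calponin, named after its values were seen, was at 1177, 2420.4 and 1832 CPM against 440.5, 603 and 435 CPM (adjusted p = 0.0849). A missed threshold with 2 mice does not show that these genes are equal in the 2 muscles.

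Genes with the largest fold changes that lie outside the lists were also named. Shisa3, which encodes a membrane protein of a family known to restrain WNT and FGF receptors, was at 848, 900.4 and 614 CPM in Ano1-high and 0.394, 1.26 and 0.749 CPM in vascular cells (9.86 ± 0.76, adjusted p = 0.00252). Igfbp2, which binds insulin-like growth factors, was at 96.6, 316 and 533 CPM against 0, 0.209 and 3.00 CPM, a ratio of 1602 (95% counting interval 548 to 7769) on 3 vascular counts (adjusted p = 0.0131). Col8a2, a short-chain collagen, was at 159, 126 and 145 CPM against 0, 0.0698 and 0 CPM (adjusted p = 0.0291). It was uneven among visceral cells, at 239.5 CPM on the first plate and 25.2 CPM on the second plate. Tctex1d1 was at 179.6, 94.6 and 17.8 CPM in Ano1-high cells and had 0 counts in the vascular cells of the 2 mice. Set against a floor of 3 counts over the class, its level was at least 600.1-fold higher (adjusted p = 0.0369), and 49.8% of its exon bases are shared with an antisense transcript. Phf24 was at 357, 98.6 and 20.2 CPM against 0, 0.14 and 41.2 CPM (adjusted p = 0.0131), so that the third mouse showed the opposite order.

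On the vascular side, Slc7a2, a transporter of cationic amino acids including arginine, was at 550.3, 349 and 83.6 CPM against 1.32, 1.11 and 11.95 CPM (-8.54 ± 0.80, adjusted p = 0.00252). Inpp4b, a phosphatase of phosphoinositides, was at 365, 286 and 466 CPM against 1.98, 6.08 and 4.60 CPM (-6.52 ± 0.91, adjusted p = 0.0131). Dgkg, a diacylglycerol kinase, was at 153, 242 and 148 CPM against 0.331, 3.65 and 41.1 CPM (-7.17 ± 1.26, adjusted p = 0.0353). These 3 enzymes and carriers were low in the Ano1-high cells of the 2 mice, with higher values in 20GG79:6 for Slc7a2 and Dgkg. Olfml2a, a secreted olfactomedin-domain protein, was at 1144, 1176 and 1124 CPM against 2.65, 59.3 and 247 CPM (-6.41 ± 1.02, adjusted p = 0.0226). Sez6l was at 306, 122 and 46.4 CPM against 0, 1.22 and 0.306 CPM (adjusted p = 0.0464), and Csrnp1, an immediate-early nuclear protein, at 187, 380.3 and 88.6 CPM against 2.31, 18.5 and 75.7 CPM (adjusted p = 0.0325). Tbx3os1, an RNA antisense to Tbx3, was at 213, 115 and 204 CPM against 1.32, 0.276 and 10.7 CPM (adjusted p = 0.0345), while Tbx3 itself, at 183, 177 and 324 CPM against 1.98, 19.9 and 10.4 CPM, did not pass (adjusted p = 0.195), with 115 exon bases shared between the pair.

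The third mouse did not enter the test that called the genes. Of the 59 genes higher in Ano1-high cells, 58 had the same direction in 20GG79:6, all but Phf24, and so did 46 of the 46 genes higher in vascular cells. The same direction held for 54.4% of all genes tested. Over the 3 mice the levels of 58 of the 59 and 45 of the 46 genes did not overlap, beside 9.01% and 7.34% of all genes tested, but 2 of these mice chose the genes and nothing is read from these counts. The differences in log2(CPM + 1) were smaller in 20GG79:6, with a median of 4.17 beside 6.02 in the 2 mice for the first group and of -2.63 beside -3.34 for the second. This mouse contributed 15 and 14 cells on 1 plate, is labelled male, and had immune markers at 82.1 and 332.5 CPM and epithelial markers at 591.2 and 342.3 CPM in its Ano1-high and vascular cells, and their part in the smaller differences was not tested. With all 3 mice in 1 fit 42 genes passed, all of them among the 105.

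**Figure D3:**
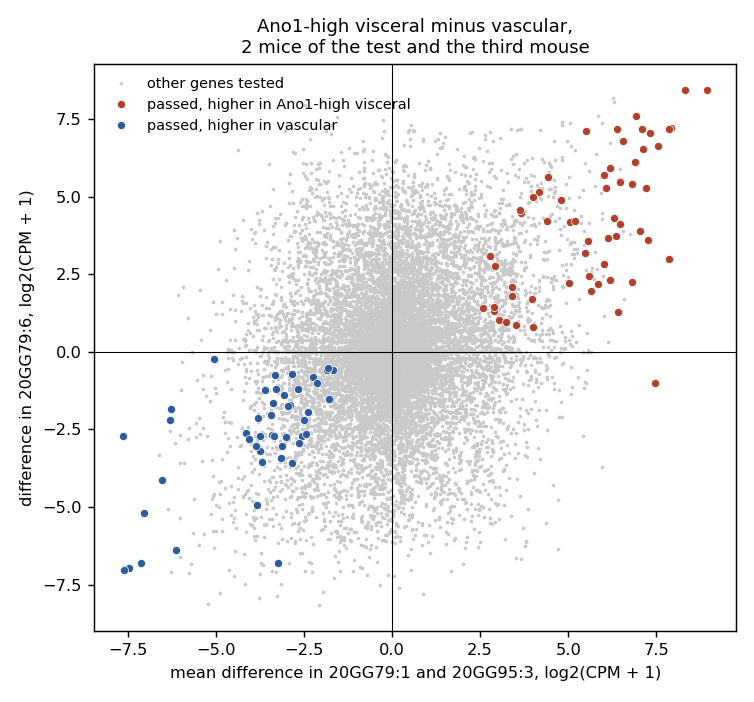
Difference in log2(CPM + 1) between Ano1-high visceral and vascular cells in the mouse 20GG79:6, labelled male (y axis). The x axis is the mean difference in the 2 mice of the test, labelled female. Each point is 1 gene tested, in grey where it did not pass. Apart from Phf24, points of genes that passed lie at the upper right or the lower left, so their sign is the same on both axes. The direction was the same for 54.4% of all genes tested.

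Part of the genes that parted Ano1-high from vascular cells also parted them from other visceral cells. The comparison of Ano1-high with F2r-high cells called 45 of 15507 genes (0.29%), 26 higher in Ano1-high (0.168%) and 19 higher in F2r-high cells (0.123%). These calls depended on the fit: without the mouse block 0 genes passed and 992 had an unadjusted p under 0.05, with limma-voom 0 passed and 1114 had one, with the spread shared over 4 classes 0 passed and 823 had one, and without the second plate 2 passed. Of the 59 genes higher in Ano1-high than in vascular cells, 12 were also higher than in F2r-high cells, 1 was lower and 46 did not pass. The 2 comparisons share the Ano1-high cells, so their overlap is no independent result and each gene's own values are given.

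The 12 genes include Ptger1, Ptger3, Tacr2, Adora1, Rspo3, Igfbp2, Col8a2 and Pde5a and, named after their values were seen, Grem1, Fgf10 and Igfbp6. All 4 receptors that were higher than in vascular cells are among them. Tacr2 was at 428 and 329 CPM in Ano1-high and 18.9 and 19.6 CPM in F2r-high cells (4.34 ± 0.54, adjusted p = 0.00387). Ptger3 was at 23.4 and 10.2 CPM in F2r-high cells (4.19 ± 0.62, adjusted p = 0.00852), and Ptger1 at 166 and 321 CPM (2.76 ± 0.44, adjusted p = 0.0161). Rspo3 was at 0.559 and 12.8 CPM (6.51 ± 1.20, adjusted p = 0.0364). These receptors and ligands were thus higher in Ano1-high cells than in either of the other classes. Bmp4 and Postn lay otherwise: Bmp4 was at 1035 and 940.3 CPM and Postn at 5762 and 5839.7 CPM in F2r-high cells, and neither passed. The Hedgehog decoy Hhip was lower in Ano1-high than in F2r-high cells, at 396 and 448 CPM against 2466 and 2195 CPM (-2.41 ± 0.29, adjusted p = 0.00387), though higher than in vascular cells. Bcam, which was higher in vascular than in Ano1-high cells, was higher in Ano1-high than in F2r-high cells, at 299.6 and 489 CPM against 18.8 and 63.8 CPM (3.52 ± 0.54, adjusted p = 0.0128).

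**Figure D4:**
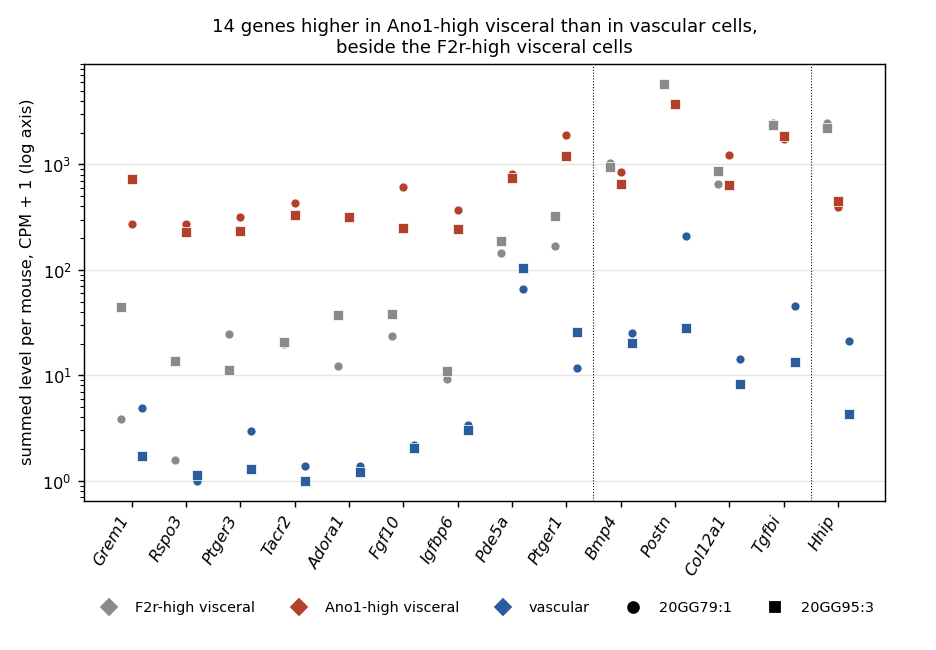
Summed level (CPM + 1, log axis) of 14 genes in vascular, Ano1-high and F2r-high cells, 1 symbol per mouse for the 2 mice of the test. The 9 genes left of the first dotted line are higher in Ano1-high than in both other classes, the next 4 were not called between the visceral classes, and Hhip is highest in F2r-high cells.

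Within the classes, single cells varied widely. To compare shares of cells across depths each cell was thinned to 50000 gene counts, which kept 111 of 111 Ano1-high, 99 of 99 vascular and 363 of 364 F2r-high cells. Intervals and limits on these shares pool the cells of 2 mice, most from 20GG95:3, and cover the counting of cells only, not the spread between animals. A limit bounds the share of cells with a count at this depth, not of cells that express the gene. Tacr2 was found in 53 of 111 Ano1-high cells (47.7%, exact 95% interval 38.2 to 57.4), in 48 of 363 F2r-high cells and in 0 of 99 vascular cells, which allows a share of up to 3.03%. Before thinning it was found in 60, 89 and 1 cells. By mouse, the thinned Ano1-high cells with Tacr2 were 4 of 9 and 49 of 102. Rspo3 was found in 68 of 111 Ano1-high cells (61.3%, 51.5 to 70.4), in 24 of 363 F2r-high and in 1 of 99 vascular cells, with 5 of 9 and 63 of 102 Ano1-high cells by mouse. Both genes therefore separate the classes in level while a large share of Ano1-high cells had no count of them. Adora1 was found in 51 of 111 Ano1-high and 4 of 99 vascular cells.

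Postn was more even, with a median of 3667 CPM over the 111 Ano1-high cells and a middle range from 1875 to 5450.0 CPM, whereas its highest level in any vascular cell was 305.6 CPM. On the vascular side, Cacna1g was found in 35 and Adra1a in 32 of 99 cells and each in 0 of 111 Ano1-high cells, which allows a share of up to 2.70%. Before thinning each was found in 2 Ano1-high cells. Heyl was found in 81 of 99 vascular and 15 of 111 Ano1-high cells, the latter at no more than 28.6 CPM in any cell before thinning. The early-response gene Nr4a1 had a median of 6522 CPM over vascular cells and of 109.5 CPM over Ano1-high cells, but its range reached from 37.7 to 22178 CPM in the former and from 0 to 11777 CPM in the latter. Des medians were 1881 CPM in Ano1-high, 2776 CPM in vascular and 213.6 CPM in F2r-high cells.

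**Figure D5:**
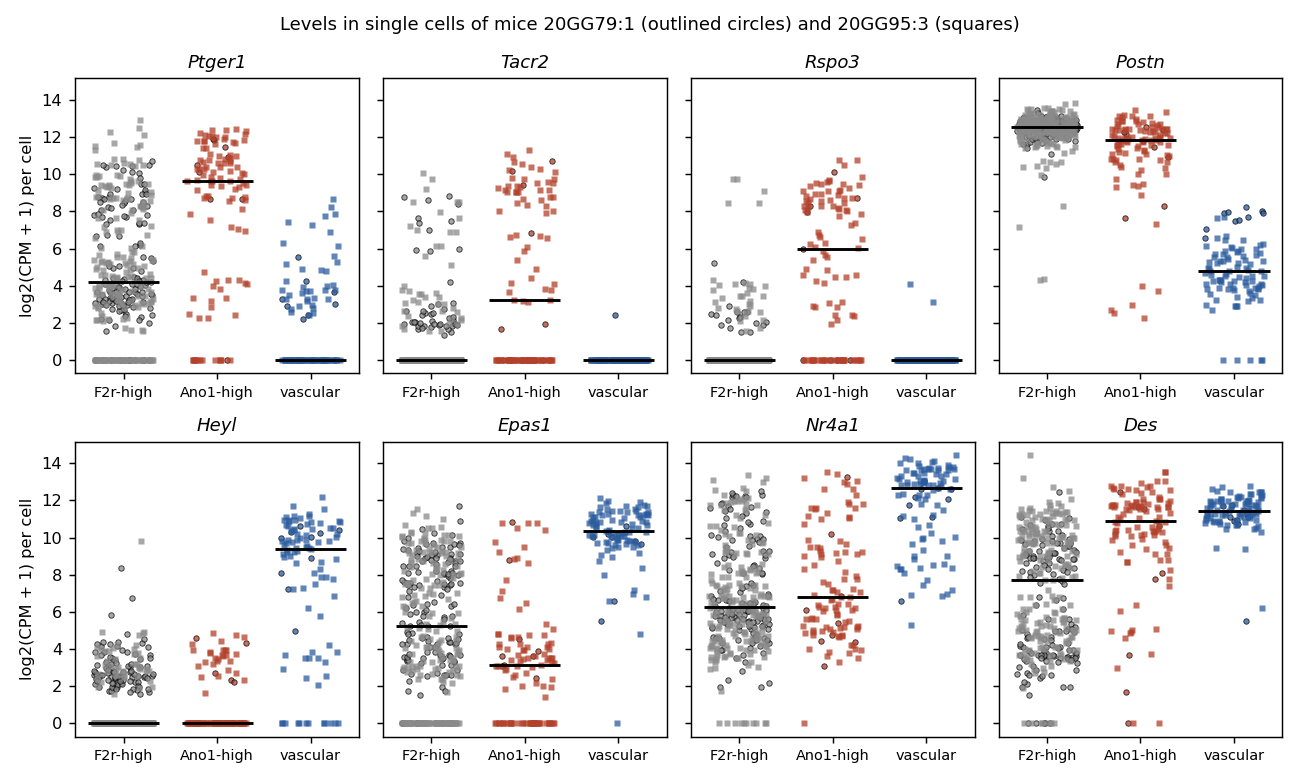
Level per cell, as log2(CPM + 1), of 8 genes in Ano1-high visceral, vascular and F2r-high cells of the 2 mice, with 1 point per cell and a black bar at the median over cells. Tacr2 and Rspo3 are at 0 in nearly all vascular cells and in part of the Ano1-high cells, Postn is high in both visceral classes, and Nr4a1 varies widely within every class.

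Among Ano1-high cells of 20GG95:3, some genes varied together within each plate, which is given as a description over cells that share a mouse and a plate and differ in depth. Actg2 and Cnn1 had a Spearman rho of 0.722 over the 33 cells of the first plate and of 0.575 over the 69 cells of the second plate. Des and Igfbp2 had 0.633 and 0.509. Des and the fibroblast marker Dcn ran opposite, at -0.585 and -0.383, as did Des and Hhip, at -0.435 and -0.407. These pairs were picked after their values were seen. Ano1-high cells with more desmin thus had more Igfbp2 and less Dcn and Hhip RNA on both plates.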

How the data were processed

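Counts per gene and cell were used as deposited by the authors, for 46517 gene rows and 92 spike-in rows. The submitters' processing notes name bcl2fastq, Bowtie, Bowtie2, Subread and featureCounts and the builds GRCm38 and mm10, and no source used here says whether strand was used. The members and gene lists were chosen with earlier results of these data known.

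CPM per cell were taken over gene rows without spike-ins, cells were gated as described, and counts were summed per mouse and class, with at least 5 cells a sum for the mouse outside the comparison. Sums were fitted with edgeR 4.0.16 in R 4.3.3 (filterByExpr, TMM, robust quasi-likelihood) with mouse as a block, and p-values were adjusted over all tested genes other than the 10 gating genes. Same-numbered sums come from the same animal, which is the source of the pairing. Named genes were those fixed in the plan: up to 4 per list and direction by p, and the 10 largest fold changes per direction, at a level of at least 50 CPM, plus smooth muscle genes always shown. No doublets were called. The edgeR fit against vascular cells was tested on simulated data. DESeq2 1.42.0 and limma 3.58.1 were alternatives. Replicate mice are separate animals. Gene positions are from GENCODE vM21 and promoters from RefSeq. Some genes are not reported here.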

Additional observations from a re-analysis of the deposited data

How the results depend on the processing

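Against vascular cells, 105 genes passed. With RLE size factors 57 passed, with DESeq2 781, with limma-voom 25, with no filter on low counts 328, with the mean of log2(CPM + 1) over cells as the value 600, with a stricter Ano1 gate 61, and, in fits chosen after seeing the data, 42 with 3 mice and 257 without Ano1-high cells holding Kcna5 or Pln. Leaving out 1 mouse gave 4 to 5. Without the replicate block that pairs the sums of an animal 146 passed. The fits without a mouse, which leave 1 sum a class, take their spread from the other classes.

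Against F2r-high cells, 45 genes passed. Without the replicate block 0 passed, with RLE size factors 106, with DESeq2 396, with limma-voom 0, with no filter 139, with the spread shared over 4 classes 0, without the second plate of 20GG95:3 2, with the mean over cells 201, and without Ano1-high cells holding Kcna5 or Pln 117. Leaving out 1 mouse gave 3 to 29. The median of all genes in this comparison lay at -0.29, and at -0.18 with RLE size factors, so its fold changes are relative to that shift.

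The 43 named genes that passed were chosen for the same sign in both mice, which largely sets their sign in refits of these mice. None of these 43 genes changed sign in any of the 18 alternatives. Of these, 28 passed with RLE size factors, 15 with limma-voom, 32 without cells holding markers of another type, 19 with 3 mice, 2 (Dkk3 and Postn) without 20GG79:1 and 1 (Col3a1) without 20GG95:3. Named genes that did not pass turned in some fits. The log2 fold change of Acta2 was 0.00882 with 3 mice, and that of Des 0.00308 without cells holding markers of another type. Rgs5 turned to 0.18 with no replicate block, 0.57 without 20GG95:3, 0.11 with the shared spread, 0.018 without the second plate of 20GG95:3, 0.058 in deeper cells, 0.22 without cells holding other markers, 0.67 with the mean over cells and 0.038 with Myh11 required. Tagln turned to 0.048 with limma-voom, 0.049 without 20GG79:1, 0.096 without the first plate of 20GG95:3, 0.15 without cells holding other markers, 0.16 with the mean over cells, 0.12 with the stricter Ano1 gate, 0.14 with 3 mice and 0.026 without cells holding Kcna5 or Pln. The cause of these shifts was not tested. With 2 mice, 9 and 10 cells in the smaller sums, and no molecular identifiers, depth limits low genes most: a class with 0 to 3 counts gives a bound or a wide ratio.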
